A study of Mus musculus with 45 samples.

Results

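Wildtype (WT) hippocampus was compared with wildtype striatum by RNA sequencing of whole tissue from adult mice, with 5 samples of each region, which are 10 of the 45 samples of the experiment. All mice were male C57BL/6J mice of 13 weeks. The other samples were WT cortex and the same 3 regions of mice with a Shank3 allele that lacks exons 14 to 16, either heterozygous (Shank3-HT) or homozygous (Shank3-HM, which the labels call knock-out and the columns of the table head as KI), again with 5 samples per group. The comparison took every gene whose values averaged 10 normalized counts or more over the 10 WT samples, which were 16654 of the 18135 genes in the deposited table. The labels do not state whether the samples of both regions came from the same mice or how the tissue was dissected, so the p values measure the spread between these samples.

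The hippocampus is built of glutamatergic principal cells, the granule cells of the dentate gyrus and the pyramidal cells of the CA fields, which arise in the pallium and are joined by a minority of GABAergic interneurons. The striatum has no glutamatergic principal cells of its own. Nearly all of its neurons are GABAergic spiny projection neurons (SPNs) from the subpallium, of a direct pathway, with the dopamine receptor Drd1 and the peptides substance P and dynorphin, or an indirect pathway, with Drd2, the adenosine receptor Adora2a and enkephalin. Large cholinergic interneurons and several GABAergic interneurons make up the rest, and dopamine acting through cAMP is the best known signal in both pathways. In such bulk samples, fewer cells of a type and less RNA per cell cannot be told apart.

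The labelled regions were checked against defining markers. Of 16 striatal markers, 16 were higher in the striatum and lay above every hippocampus sample. Of 16 hippocampal markers, 13 were higher in the hippocampus without overlap, while Wfs1, a marker of CA1 pyramidal cells, was higher in the striatum and the CA2 marker Rgs14 and the factor Zbtb20 did not pass the test.

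Some samples stood apart from the others of their group. Striatum replicate 5 held more RNA of many genes that are high in the hippocampus than the other 4 striatum samples. Among 141 genes at least 8-fold higher in the hippocampus than in those 4 samples, it lay above all of them in 106, by a median of 0.92 on the log2 scale, whereas each other replicate, assessed in the same way, lay above the rest in 4 to 13 of 119 to 124 genes. Of 144 striatal genes chosen in the same way, it lay below the other samples in 107, by a median log2 difference of -0.31. For example, Slc17a7, the vesicular glutamate transporter of pallial neurons, stood at 1884, 940.2, 2137, 1405 and 7801 normalized counts in striatum replicates 1 to 5. This gene was also high in WT cortex, as given below. The granule cell list summed to 20581 in replicate 5 and 19210 to 22311 in the others. Sums were 23405 and 20262 to 21202 for the CA3 and mossy cell list, and 21330 and 19761 to 21015 for the cortex and claustrum list. Which tissue the additional RNA came from was not tested. The summed level of the 30 pallial transcription factors did not set replicate 5 apart, at 53778 there and 49946 to 54488 in the others. That sum includes 5 factors called higher in the striatum, such as Egr3 at 5810 to 7332 in the striatum samples. Of the single factors, Neurod6 stood at 606.2 in replicate 5 and 89.2 to 139.8 in the others. Neurod2 stood at 420.1 and 43.1 to 114.6, whereas Lhx9 did not stand out. Genes of the choroid plexus, the epithelium that secretes cerebrospinal fluid, varied between hippocampus samples. The summed level of the 16 genes of this list was 14189, 9699, 60686, 191454 and 60786 in hippocampus replicates 1 to 5 and 5333 to 7351 in the striatum, and Kcnj13, Kcne2 and Sostdc1 were at 0 in some striatum samples, while none of the 16 was at 0 in the hippocampus. The part of admixed tissue in the results was not tested beyond leaving out each sample in turn, and values without a sample are given for only some of the genes it touches. Leaving out striatum replicate 5 moved the log2 difference by at most 0.57 (Ntf3) among the 226 genes checked, those the text gives with a value.

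**Figure D1:**
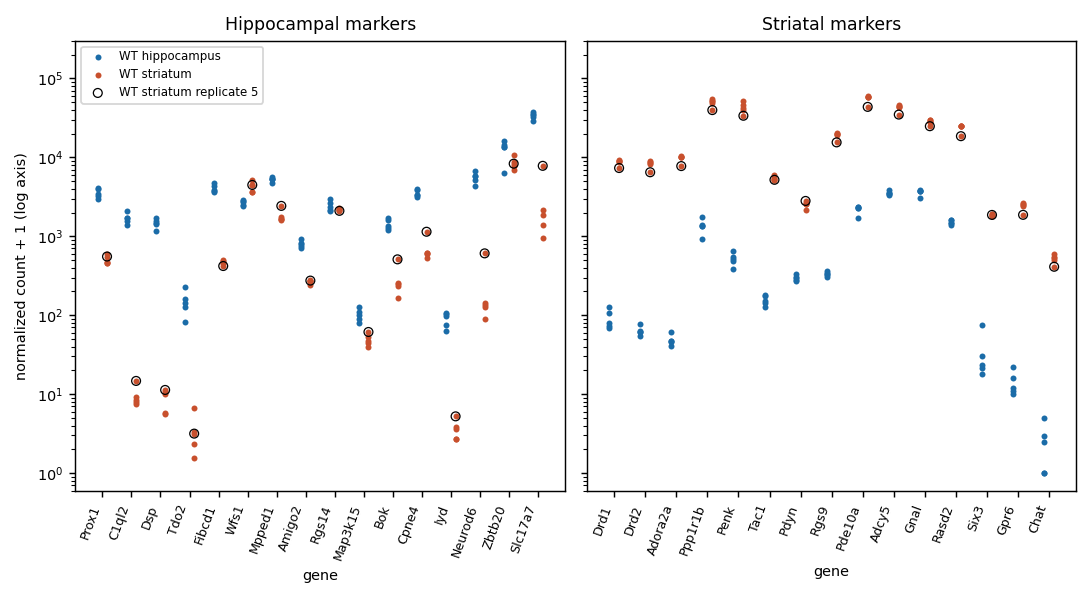
Normalized counts plus 1 on a log axis for 16 hippocampal and 15 of the 16 striatal marker genes in each of the 5 WT hippocampus and 5 WT striatum samples (points), with striatum replicate 5 circled. The groups do not overlap for any striatal marker shown, whereas Wfs1 lies higher in the striatum and Rgs14 and Zbtb20 overlap.

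About as many genes were higher in the hippocampus as in the striatum. In limma on log2(normalized count + 1) with Benjamini-Hochberg adjustment, 8485 of 16654 genes (50.9%) passed an adjusted p value of 0.05, 4300 (25.8%) with higher values in the hippocampus and 4185 (25.1%) in the striatum. These shares are the background for each gene list, and a list whose share called lies near them does not stand out from genes in general. Differences of at least 2-fold were fewer, 1490 genes (8.95%) toward the hippocampus and 1217 (7.31%) toward the striatum. The 5 samples of one region lay above all samples of the other in 6454 genes (38.8%), 3232 (19.4%) for the hippocampus and 3222 (19.3%) for the striatum. The median difference over all genes was -0.0002 on the log2 scale, and 65.7% of genes differed by less than 0.5. This even split rests on the authors' normalization, because scaling each sample to the same total shifted the median gene by 0.11 toward the hippocampus and gave 5724 and 3110 genes.

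Large differences were found in both directions. At least 8-fold differences were found in 240 genes toward the hippocampus and 226 toward the striatum, while at least 64-fold differences were found in 20 and 31 genes. A total of 19 genes stood below 10 normalized counts in every hippocampus sample and at 100 or more in every striatum sample, and 10 genes showed the reverse. The 19 striatal genes included Serpina9, Gpx6, Chat, Ptpn7, Ido1, Olfr1393, Slc18a3, Lhx8, Clec12a and Gdnf, and the 10 hippocampal genes Lct, Slc9a4, Lhx9, Krt2, Syna, Ntf3, Rxfp3 and Arsj. Fold differences of genes near 0 in a region depend on the 1 added before the logarithm and are given as fitted on that scale.

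**Figure D2:**
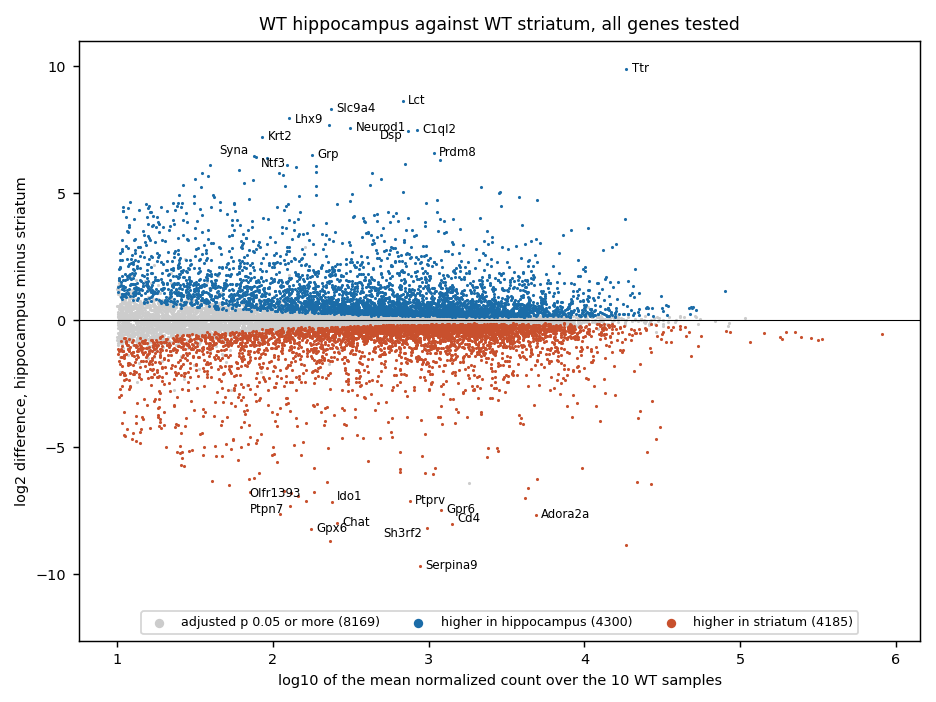
Mean normalized count over the 10 WT samples (log10, horizontal) against the log2 difference between hippocampus and striatum (vertical) for the 16654 genes tested, with the names of genes of largest difference in each direction. Blue points passed the test toward the hippocampus (4300), red points toward the striatum (4185) and grey points did not pass.

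The gene with the largest difference toward the striatum was Serpina9, a member of the serpin protease inhibitors. Its striatum samples held 2010, 1972, 1739, 1735 and 1363 normalized counts and its hippocampus samples 0.601, 0.991, 0.654, 0 and 8.1, a log2 difference of -9.65 ± 0.45 (SE) (adjusted p = 1.01e-09). This gene and the others named for size or p value were taken only from genes whose samples did not overlap between regions, so the absence of overlap in them is no finding. Sh3rf2, a ring finger protein with SH3 domains, had 0 normalized counts in hippocampus replicate 2 and at most 17.5 in the others, against 1476 to 2363 in the striatum, and its log2 difference of -8.19 was -7.51 without hippocampus replicate 2. Other genes named for size were Gpx6, Cd4, Chat, Adora2a, Gpr6, Ptpn7, Ido1, Olfr1393 and Ptprv. Their log2 differences ran from -8.22 in Gpx6, a glutathione peroxidase, to -7.1 in Ptprv, a receptor-type phosphatase. Several of these genes are better known outside the brain. Cd4, the co-receptor of helper T cells, held 3244, 3042, 2871, 2872 and 1971 normalized counts in the striatum and 9.2, 9.09, 7.01, 13.3 and 10.7 in the hippocampus. Ido1, an enzyme that degrades tryptophan, held 549.1, 531.6, 491.4, 424.2 and 367.1 in the striatum and 4.85, 2.51, 2.22, 1.79 and 1.08 in the hippocampus. The smallest p values belonged to Rgs9, Adora2a and Syt6. Rgs9, which speeds the shutdown of G proteins below dopamine and opioid receptors, stood at 19204, 20539, 19517, 19631 and 15467 in the striatum and 336.4, 358.9, 325.7, 307.2 and 341.1 in the hippocampus, a log2 difference of -5.81 ± 0.076 (SE) (adjusted p = 2.29e-14). Striatum replicate 5 was the lowest striatum sample for Rgs9, Adora2a and Syt6.

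Toward the hippocampus, the gene with the largest difference was Ttr, which encodes the thyroxine carrier transthyretin and marks the choroid plexus. Its hippocampus samples held 5719, 2097, 31385, 113040 and 32301 normalized counts and its striatum samples 8.43, 2.07, 1.93, 839.6 and 24.2. The spread within the hippocampus was wide, and the log2 difference was 9.89 ± 1.43 (SE) (adjusted p = 5.96e-05), and with single samples left out it ran from 9.2 without hippocampus replicate 4 to 11.28 without striatum replicate 4, with 9.25, 9.24 and 10.64 without striatum replicate 2, striatum replicate 3 and hippocampus replicate 2. It was 9.01 without replicate 3 of both regions. The next gene, Lct, which encodes lactase and is a marker of dentate granule cells, varied little: it stood at 1457, 1475, 1379, 1316 and 1187 in the hippocampus and 4.93, 2.73, 1.71, 3.41 and 0.859 in the striatum, with a log2 difference of 8.62 ± 0.26 (SE) (adjusted p = 1.31e-11). Slc9a4, a sodium and proton exchanger, stood at 528.4, 470.7, 504.2, 320.1 and 539.7 in the hippocampus and 0, 3, 0, 0.678 and 0 in the striatum. Transcription factors and dentate genes made up most of the remainder, with Lhx9 (7.68), Neurod1 (7.57), C1ql2 (7.49), Dsp (7.45) and Prdm8 (6.58) as log2 differences. The others of the 12 were Krt2, a keratin of skin (7.19), Grp, the precursor of gastrin-releasing peptide, Syna, an endogenous retroviral envelope gene of the placenta, and Ntf3, the neurotrophin NT-3. Krt2 was listed at 0 in 4 of the 5 striatum samples and at 119.8 to 204.8 in the hippocampus. The smallest p values belonged to Pcdh20, Cabp7 and Gpr161. Pcdh20, a protocadherin, held 3554, 4330, 4515, 3687 and 4030 in the hippocampus and 221.9, 236.8, 253.7, 272.5 and 250.4 in the striatum, a log2 difference of 4.02 ± 0.081 (SE) (adjusted p = 3.75e-13).

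Every measured gene of the SPN list was higher in the striatum. Of 32 genes that both pathways use, 32 passed the test toward the striatum and 0 toward the hippocampus, with 32 of 32 above every hippocampus sample (background 25.1% of all genes called toward the striatum and 19.3% without overlap), and the median log2 difference was -3.48 against -0.0002 over all genes. The counts were the same without striatum replicate 5. Summed over the list, levels were 526447 to 691141 in the striatum and 52674 to 54857 in the hippocampus, and replicate 5 gave the lowest striatal sum. The 12 genes of cAMP and G protein signalling had a median of -3.99. Ppp1r1b encodes DARPP-32, the phosphatase inhibitor that dopamine switches through protein kinase A, and stood at 54782, 51212, 51108, 49144 and 39664 in the striatum and 1385, 928.0, 1362, 1754 and 1350 in the hippocampus, a log2 difference of -5.2 ± 0.14 (SE) (adjusted p = 4.05e-12). Pde10a, the phosphodiesterase of SPNs, stood at 59424, 58866, 58282, 58299 and 43557 and 1700, 2358, 2313, 2260 and 2359. For both genes the lowest striatum sample was replicate 5, which lay well above the highest hippocampus sample. Scn4b, a sodium channel subunit, differed by -6.42 ± 0.10 (SE), and Rasd2, Gng7 and Arpp21 by -3.95, -3.19 and -4.2 on the log2 scale. The smallest differences of the list were those of Gucy1b1 (-1.0), a subunit of the nitric oxide receptor guanylate cyclase, Cnr1 (-1.25), the cannabinoid receptor that hippocampal interneurons also carry, and Bcl11b (-1.36), a factor of SPNs and of dentate and CA neurons.

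Genes of both SPN pathways were higher in the striatum, with exceptions in the direct pathway. All 9 measured genes of the indirect list were higher in the striatum (median log2 difference -6.00, background 25.1% of all genes called toward the striatum and 25.8% toward the hippocampus). Of 11 direct pathway genes, 9 were higher in the striatum (median -3.11), and 2 were higher in the hippocampus, among them the factor Eya1 (1.08), and the lists were not tested against each other. Drd2 stood at 8740, 9008, 8203, 8569 and 6469 in the striatum and 61.7, 54, 60.7, 60.2 and 76 in the hippocampus, a log2 difference of -7.01 ± 0.11 (SE). Drd1 stood at 8943, 8758, 9122, 8948 and 7318 and 72.2, 126.9, 105.6, 67.6 and 79.6, a difference of -6.6 ± 0.15 (SE). Both receptors were thus far apart in every sample, with adjusted p values of 3.51e-14 and 9.76e-13. Adora2a, the adenosine receptor that opposes Drd2, differed by -7.66 ± 0.11 (SE), with 10338, 10191, 10017, 10218 and 7746 normalized counts in the striatum and 39.9, 44.7, 59.8, 45.6 and 45.8 in the hippocampus. Penk, the precursor of enkephalin, stood at 33624 to 51967 in the striatum and 385.8 to 648.2 in the hippocampus, and Tac1, of substance P, at 5189 to 5891 and 125.9 to 179.0. Pdyn, of dynorphin, differed less (-3.11), at 2177 to 2802 and 273.6 to 329.1, and dentate granule cells are known to make this peptide too.

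Retinoid receptors differed in both directions. Rarb, a retinoic acid receptor whose own promoter carries a known retinoic acid response element, stood at 4967, 4915, 4745, 4691 and 4025 in the striatum and 143.7, 132.4, 153.3, 122.3 and 161.7 in the hippocampus, a log2 difference of -5.03 ± 0.087 (SE) (adjusted p = 9.84e-14), and its partner Rxrg differed by -5.36 ± 0.12 (SE). Of 15 genes for retinoid synthesis, binding and receptors, 6 were higher in the striatum, led by Rxrg, Rarb and the binding protein Crabp1 (-3.14), and 5 in the hippocampus, namely the receptor Rara (1.81), the synthesizing enzymes Aldh1a1 (0.56), Aldh1a2 (2.32) and Aldh1a3 (1.2) and the degrading enzyme Cyp26b1 (3.39), against 25.1% and 25.8% of all genes. Aldh1a3 was low in both regions, at 14.2, 25.5, 23.4, 16.7 and 20 in the hippocampus and 12, 11.7, 9.58, 2.1 and 9.52 in the striatum, with a log2 difference of 0.82 without striatum replicate 4, its lowest sample, and it did not pass the test without replicate 3 of both regions (1.20, adjusted p = 0.06). Aldh1a2, which meninges also express, stood at 153.7, 300.8, 82.7, 388.3 and 180.1 in the hippocampus, where the summed level of the 10 genes of the meninges list was 17487, 23968, 11584, 39757 and 23418. A direct repeat of GTTCA with any 6 bases between the copies, searched on both strands in windows of 300 bases around gene starts in the RefSeq table (build GRCm38.p6), was found for 24 of 27025 genes (0.0888%), and among the 12 retinoid genes with an entry only for Rarb. Aldh1a3 and Crabp2 were among those without an entry. The 250 bases before the Rarb start are shown because they hold the element, in capitals, at bases 52 to 37 before the start (chr14:16575477-16575726, minus strand, printed 5′ to 3′ along the gene).
Rarb: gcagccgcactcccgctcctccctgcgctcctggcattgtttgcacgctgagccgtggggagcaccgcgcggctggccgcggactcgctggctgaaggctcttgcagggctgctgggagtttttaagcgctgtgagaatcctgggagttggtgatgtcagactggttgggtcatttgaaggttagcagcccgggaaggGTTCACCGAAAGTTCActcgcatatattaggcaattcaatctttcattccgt

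Peptide precursors did not move together. Of 27 measured precursors, 12 were higher in the hippocampus and 10 in the striatum, with a median log2 difference of 0.14, against 25.8% and 25.1% of all genes called. After Penk and Tac1, the striatal precursors with the largest differences were Trh (-4.12), of thyrotropin-releasing hormone, and Pdyn. Grp (6.49), Cort (3.54), of the somatostatin relative cortistatin, Cck (3.49), of cholecystokinin, and Adcyap1 (3.36), of the peptide PACAP, led the hippocampal side. Cck held 5208, 4339, 4032, 3785 and 3894 normalized counts in the hippocampus and 378.5, 220.0, 321.4, 230.3 and 1182 in the striatum, where replicate 5 was the highest, and the log2 difference was 3.91 without it. Sst, of somatostatin, which interneurons of both regions release, stood at 3257 to 4376 and 3095 to 3784 and did not pass the test (0.16 ± 0.08 (SE), adjusted p = 0.103). It passed without striatum replicate 5 or hippocampus replicate 4 (0.21 in each case). The same held with quantile normalization (0.21, limma adjusted p = 0.0357) and with equal totals per sample (0.28, 0.0121). Tac1 and Cck are shown as precursors on opposite sides whose promoters hold the same variant of the cAMP response element, TGCGTCA, in capitals (both strands searched, no overlap with the full element TGACGTCA). The variant was found in the windows of 655 genes (2.42%) and the full element in those of 549 (2.03%). Of 21 precursor genes with an entry, Tac1, Cort and Cck held the variant, and Sst, Cartpt, Scg2 and Chgb the full element. Penk, Pnoc, Crh, Grp, Vgf, Nxph3 and Nxph4 had no entry. The Tac1 bases (chr6:7554811-7555060, plus strand) hold the variant at 199 to 193 before the start and the Cck bases (chr9:121495695-121495944, minus strand) at 49 to 43.
Tac1: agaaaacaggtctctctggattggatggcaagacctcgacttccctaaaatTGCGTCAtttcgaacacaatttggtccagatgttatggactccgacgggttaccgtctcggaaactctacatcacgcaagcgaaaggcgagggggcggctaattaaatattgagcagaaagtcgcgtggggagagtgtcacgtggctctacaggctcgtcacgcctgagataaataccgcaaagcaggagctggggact
Cck: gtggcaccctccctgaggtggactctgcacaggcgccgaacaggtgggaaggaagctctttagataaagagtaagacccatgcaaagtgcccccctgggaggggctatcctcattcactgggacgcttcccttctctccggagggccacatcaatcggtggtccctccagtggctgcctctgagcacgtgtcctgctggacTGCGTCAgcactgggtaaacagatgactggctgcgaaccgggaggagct

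Genes of the hippocampal fields were mostly higher in the hippocampus. Of 17 granule cell genes, 14 were higher in the hippocampus and 1 in the striatum (median log2 difference 1.81, background 25.8% called toward the hippocampus). Of 14 genes of CA3 pyramidal and mossy cells, 13 were higher and 1 lower (median 2.31). For CA1, 6 of 10 were higher and 3 lower (1.22), and for CA2, 5 of 9 were higher and 3 lower (0.61). C1ql2, a synaptic protein of mossy fibres, stood at 2070, 1720, 1542, 1383 and 1693 in the hippocampus and 6.5, 7.54, 8.24, 6.96 and 13.7 in the striatum, and the desmosome gene Dsp at 1480, 1684, 1545, 1417 and 1178 and 4.8, 9.68, 4.55, 9.07 and 10.3. Prox1, the factor that keeps granule cell identity, stood at 2935 to 4037 and 451.2 to 588.3 (2.8 ± 0.10 (SE)). Iyd, a deiodinase gene that marks CA3, differed by 4.65 ± 0.27 (SE), and Calb2, the calretinin of mossy cells and interneurons, by 3.44 ± 0.21 (SE). In CA1, Ccn3 (3.97), Gpr161 (3.42) and the chitin receptor Fibcd1 (3.12) were higher in the hippocampus, whereas Wfs1, the Wolfram syndrome gene, stood at 2428 to 2848 there and at 3672 to 5143 in the striatum, without overlap (adjusted p = 3.06e-05). Of the CA2 genes, Pcp4 (-3.27), a calmodulin regulator, Necab2 (-1.36) and Vcan (-0.82) were higher in the striatum, and Sostdc1 (5.7), which the choroid plexus list also holds, had the largest difference toward the hippocampus. Rgs14 stood at 2061 to 2924 and 2098 to 2273 (adjusted p = 0.197). Zbtb20, the hippocampal fate factor, stood at 6273, 15878, 14326, 13587 and 13471 in the hippocampus and 6933, 8852, 7764, 10655 and 8308 in the striatum (adjusted p = 0.0516), and passed or missed the test depending on the setting. It passed without hippocampus replicate 1, its lowest sample (log2 difference 0.76, adjusted p = 5.23e-05), without striatum replicate 4 (0.61, 0.0385), with equal totals per sample (0.64, 0.0194), with quantile normalization (0.61, 0.0241), with the replicate number as a block (0.53, 0.00833), with all 45 samples in one fit (0.53, 0.0392) and with a minimum mean of 100 (0.53, 0.0496).

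**Figure D3:**
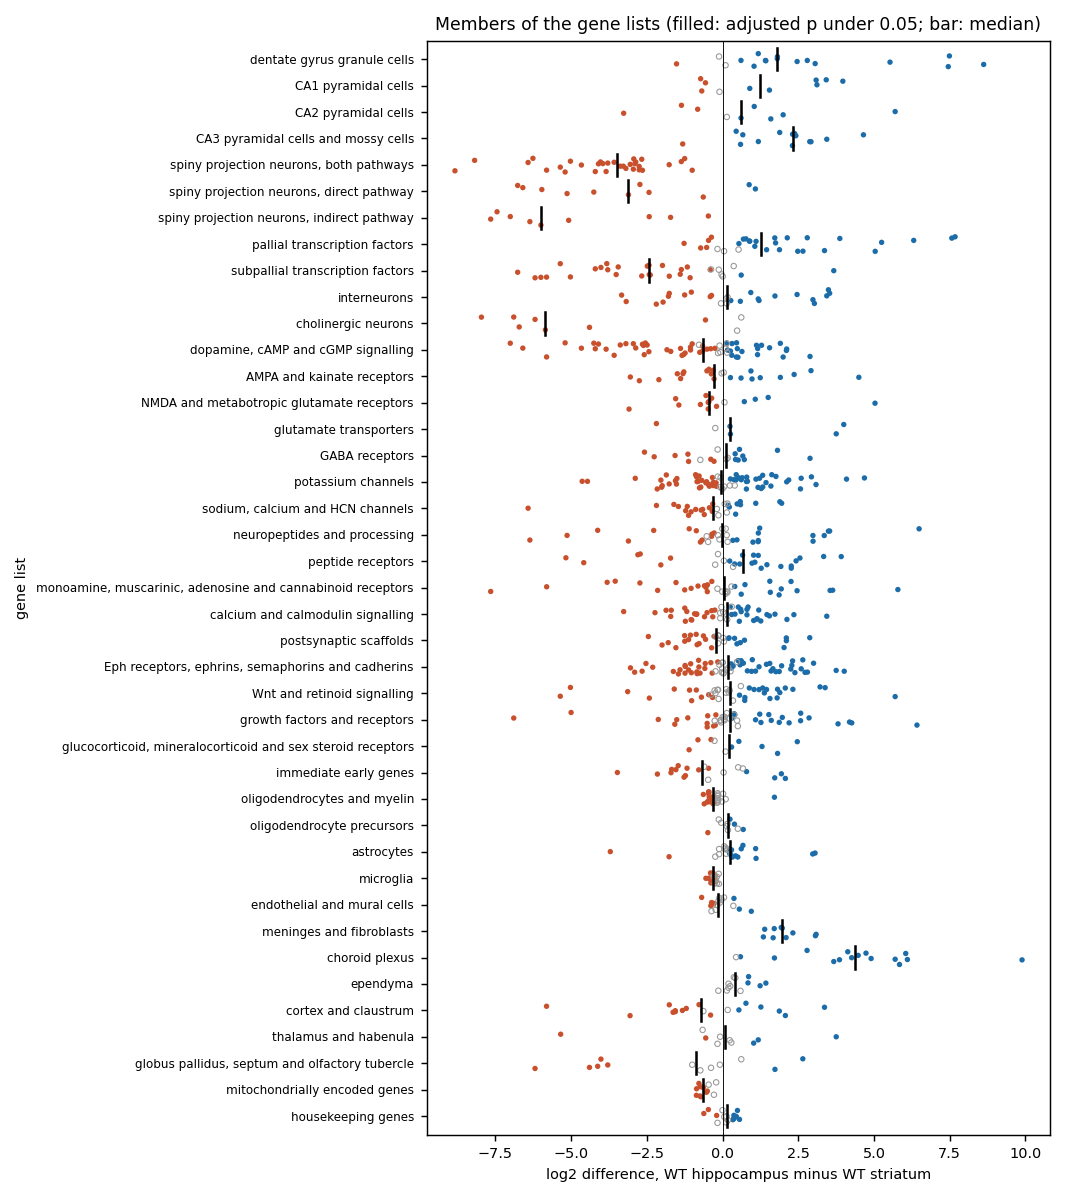
Log2 differences between WT hippocampus and WT striatum (horizontal, positive where the hippocampus was higher) of every tested member of the 41 gene lists (rows), filled where the adjusted p value was under 0.05, with the list median as a bar. The medians of the SPN and cholinergic lists lie left of 0, and those of the dentate, CA3, meninges and choroid plexus lists right of 0.

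Transcription factors split along the developmental origin of the regions. Of 30 factors of the pallium, 22 were higher in the hippocampus and 5 in the striatum (median log2 difference 1.28). Of 31 factors of the subpallium, 24 were higher in the striatum and 2 in the hippocampus (median -2.42). The background was 25.8% of all genes toward the hippocampus and 25.1% toward the striatum. Lhx9 stood at 435.7, 476.8, 487.1, 402.6 and 482.4 in the hippocampus and 2.59, 3.92, 0, 0 and 2.15 in the striatum, and the neurogenic factor Neurod1 at 648.0, 641.9, 614.6, 582.3 and 633.1 and 4.66, 2.05, 0, 0.978 and 10.3. The relatives Neurod2 and Neurod6 and the factor Bhlhe22 differed by 5.25, 5.04 and 6.31. Striatum replicate 5 held 606.2 normalized counts of Neurod6 against 89.2 to 139.8 in the other striatum samples, and the difference was 5.50 without it. On the striatal side, Isl1 (-6.77), a factor of direct pathway and cholinergic neurons, Lhx8 (-6.19), of cholinergic neurons, Six3 (-6.0), of the indirect pathway, and Foxp2 (-5.81) led the list. Six3 stood at 1785, 1936, 1788, 1902 and 1862 in the striatum and 22.4, 17.1, 20.3, 73.6 and 29.4 in the hippocampus. The pallial factors higher in the striatum were Egr3, Pou3f1, Klf9, Mef2c and Sox11, led by Egr3 (-1.27), which neuronal activity also induces. The subpallial factors higher in the hippocampus were Otx2 (3.67), which the choroid plexus list also holds and which ranged from 69.5 to 519.8 over the hippocampus samples, and Ikzf2 (0.61).

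Genes of glutamate, GABA and acetylcholine transmission differed between the regions. Slc17a7 stood at 37402, 34778, 35171, 29272 and 32706 in the hippocampus, and the log2 difference from the striatal values above was 4.0 ± 0.41 (SE) (adjusted p = 2.18e-06), or 4.47 without striatum replicate 5. Slc17a6, the vesicular transporter of subcortical glutamate neurons, was also higher in the hippocampus (3.75), while Slc17a8, the transporter of cholinergic and other neurons that release glutamate as a co-transmitter, was higher in the striatum (-2.19 ± 0.16 (SE)). The GABA synthesizing enzymes Gad1 (-1.03) and Gad2 (-1.97) and the vesicular transporter Slc32a1 (-2.19) were higher in the striatum. Gad2 held 13366, 13556, 13120, 13506 and 13337 normalized counts in the striatum and 3002, 4130, 3371, 3091 and 3635 in the hippocampus. Of 9 cholinergic genes, 7 were higher in the striatum and 0 in the hippocampus, against 25.1% and 25.8% of all genes. Chat, which makes acetylcholine, stood at 501.4, 595.7, 526.1, 546.0 and 409.8 in the striatum and at 0, 1.49, 1.96, 0 and 3.97 in the hippocampus, so that it was near 0 in each hippocampus sample. The choline transporter Slc5a7 differed by -5.85 ± 0.18 (SE).

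Markers of interneuron classes pointed both ways. Of 22 genes for their peptides, calcium binding proteins and other markers, 12 were higher in the hippocampus and 7 in the striatum, only the latter near its background (25.8% and 25.1% of all genes). Vip (2.98), Crhbp (3.03), Htr3a (2.46) and Pvalb (1.73) were higher in the hippocampus. Th (-3.33), Chodl (-3.18), Reln (-1.79) and Lamp5 (-1.76) were higher in the striatum, where Npy (-0.37), of neuropeptide Y, also passed the test by a smaller margin. Vip stood at 256.2 to 361.1 in the hippocampus and 18.8 to 112.4 in the striatum, with its highest striatal value in replicate 5.

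Glutamate receptor genes were divided between the regions subunit by subunit. Among the 4 AMPA subunits, Gria1 was higher in the hippocampus (0.94 ± 0.061 (SE)), Gria4 was higher in the striatum (-0.52), and Gria2 and Gria3 did not pass the test (adjusted p = 0.796 and 0.699). Of 12 AMPA auxiliary subunits, 6 were higher in each region, and 50.9% of all genes were called in either direction. Shisa6 stood at 4309, 6037, 6311, 5390 and 5817 in the hippocampus and 323.4, 206.0, 192.1, 176.1 and 378.2 in the striatum (4.5 ± 0.19 (SE)), and Cnih3 (2.36) and Cacng8 (1.24) were also higher in the hippocampus. Cacng4 stood at 4364, 4770, 4550, 4673 and 3855 in the striatum and 570.6, 550.5, 499.6, 522.7 and 534.7 in the hippocampus (-3.05 ± 0.067 (SE)), with Gsg1l (-2.75) and Cacng3 (-1.5) on the same side. Kainate subunits divided too: Grik4 (2.92), found at mossy fibre synapses, and Grik1 (1.91) were higher in the hippocampus, and Grik2 (-1.39), Grik3 (-1.28) and the auxiliary subunit Neto2 (-2.1) in the striatum. Among NMDA subunits, Grin2a was higher in the hippocampus (1.5 ± 0.082 (SE)), Grin1 was higher in the striatum (-0.20, and not past the test with equal totals per sample), and Grin2b did not pass the test (adjusted p = 0.728), but did without hippocampus replicate 1 (0.21). Of 7 metabotropic receptors, 6 were higher in the striatum, led by Grm4 (-3.09), and only Grm2 was higher in the hippocampus, at 1343, 1442, 1215, 1513 and 1102 against 70.6, 19.9, 21.4, 39.5 and 76.1 (5.03 ± 0.33 (SE)).

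Subunits of the GABA receptors were also called in both directions. Of 19 genes, 8 were higher in the hippocampus and 7 in the striatum (median log2 difference 0.13, background 25.8% and 25.1% of all genes). Gabra5, of receptors outside the synapse, stood at 5680, 5465, 5792, 4280 and 4997 in the hippocampus and 662.2, 749.5, 658.5, 612.1 and 861.6 in the striatum (2.89 ± 0.10 (SE), adjusted p = 6.98e-11). Gabrd, the delta subunit, also of receptors outside the synapse, stood at 3660, 3664, 3576, 3563 and 2957 in the striatum and 808.1, 564.7, 535.3, 510.1 and 526.7 in the hippocampus (-2.58 ± 0.12 (SE), adjusted p = 7e-10). The groups overlapped for neither gene. Gabra4 (-1.15), which pairs with the delta subunit, was higher in the striatum, and of the GABA-B receptor subunits Gabbr2 was higher in the hippocampus (1.81) and Gabbr1 in the striatum (-0.39).

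Shank and Homer scaffolds of the postsynaptic density divided by paralog. Shank3, the gene mutated in the other mice, stood at 12189, 12644, 12705, 12740 and 11309 in WT striatum and 7799, 7748, 8468, 7566 and 8139 in WT hippocampus (-0.63 ± 0.053 (SE), adjusted p = 3.11e-07). Shank1 was higher in the hippocampus, at 12087, 16228, 17237, 15957 and 17233 against 2936, 3488, 3583, 3882 and 5760 (2.03 ± 0.15 (SE), adjusted p = 1.04e-07), and so was Shank2 (0.72 ± 0.09 (SE), adjusted p = 1.48e-05). No paralog overlapped between regions. Homer1, which links Shank proteins to metabotropic receptors, was higher in the striatum (-1.54 ± 0.09 (SE)), and Homer2 (2.1 ± 0.17 (SE)) and Homer3 (2.88 ± 0.081 (SE)) were higher in the hippocampus. Of the 25 other scaffolds and adhesion genes, 13 were higher in the striatum and 6 in the hippocampus, the latter near its background (25.1% and 25.8% of all genes). Among the Dlgap genes, which join Shank to PSD-95, Dlgap1 was higher in the hippocampus (2.11) and Dlgap3 (-1.25) and Dlgap2 (-1.06) in the striatum, while Dlg4, of PSD-95 itself, was higher in the striatum with a log2 difference of -0.36.

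Receptors and enzymes around cAMP were called in both directions as well. Of 63 genes of dopamine, cAMP and cGMP signalling, 35 were higher in the striatum and 20 in the hippocampus (median log2 difference -0.66, background 25.1% and 25.8% of all genes). Among dopamine receptors Drd1, Drd2 and Drd3 (-4.25) were higher in the striatum, and Drd5, the other receptor of the Drd1 class, was higher in the hippocampus, at 462.0, 362.2, 425.9, 348.4 and 359.9 against 81.4, 97.5, 114.2, 74.5 and 82.8 (2.12 ± 0.13 (SE)). The olfactory type G protein gene Gnal (-2.95 ± 0.072 (SE)), which carries dopamine and adenosine signals to cyclase in SPNs, was higher in the striatum and its paralog Gnas (1.55 ± 0.12 (SE)) in the hippocampus. Adenylyl cyclase 5, Adcy5, stood at 44106, 45656, 43418, 43344 and 34793 in the striatum and 3291, 3497, 3439, 3828 and 3545 in the hippocampus. Adcy1, a cyclase that calmodulin activates, stood at 7752, 7583, 8325, 8074 and 10416 and 25314, 37025, 37829, 34718 and 34158, so that the direction was the opposite in every sample (-3.58 and 2.0). Adcy8 (1.91), also activated by calmodulin, Adcy6 (1.29) and Adcy2 (1.15) were higher in the hippocampus. Of 17 phosphodiesterases, 10 were higher in the striatum, led by Pde10a (-4.66), Pde7b (-4.1) and Pde1b (-3.85), and 4 in the hippocampus, near the background, led by Pde11a (2.89) and Pde1a (2.11).

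Serotonin, adrenergic, muscarinic and peptide receptors differed gene by gene, and are read against the 25.8% of all genes called toward the hippocampus and the 25.1% toward the striatum. Of 12 serotonin receptors, 6 were higher in each region: Htr1d (-5.81) and Htr1b (-3.81), autoreceptors and heteroreceptors of axon terminals, led in the striatum, and Htr1a (3.63) and Htr5b (3.55) in the hippocampus. Htr1a stood at 952.1, 916.3, 1000, 819.9 and 1010 in the hippocampus and 74.3, 59.7, 72.7, 44.8 and 158.4 in the striatum. Adra1d, an adrenergic receptor, had the largest difference toward the hippocampus among the 34 receptors (5.79 ± 0.36 (SE)), at 812.7 to 941.8 against 6.86 to 37.7. Chrm4 (-2.73), which restrains cyclase in direct pathway neurons, was higher in the striatum, and Chrm3 (1.94) in the hippocampus. Of the opioid receptors, Oprk1 (-5.17), Oprm1 (-2.72) and Oprd1 (-1.72) were higher in the striatum and the nociceptin receptor Oprl1 (1.02) in the hippocampus. Of 23 other peptide receptors, 16 were higher in the hippocampus, led by Sstr3 (3.92), the somatostatin receptor of neuronal cilia, and Npy2r (3.34), and 3 in the striatum, led by the substance P receptor Tacr1 (-4.58).

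Ion channels showed no common direction. Of 67 potassium channel genes, 29 were higher in the hippocampus and 31 in the striatum (median log2 difference -0.067), against 25.8% and 25.1% of all genes. Of 10 inward rectifiers, 4 were higher in each region and 2 did not pass the test. Kcnj2 (-2.88), Kcnj4 (-1.76) and Kcnj12 (-1.56), of the strong rectifiers that set the resting potential of SPNs, were among those higher in the striatum. Among those higher in the hippocampus were Kcnj6 (4.09), Kcnj3 (2.57) and Kcnj9 (1.1), which G proteins open. Kcnj6 stood at 649.4, 1324, 1305, 1114 and 1136 in the hippocampus and 67.2, 26.2, 61.2, 49.3 and 169.7 in the striatum, where replicate 5 was the highest. Kcna5 (-4.64) and Kcnh4 (-4.46) led the voltage-gated channels of the striatum and Kcng2 (4.68), Kcnc2 (3.08) and Kcnc4 (2.93) those of the hippocampus. Of 16 calcium channel subunits, 7 were higher in the striatum, led by Cacna2d2 (-2.18), and 5 in the hippocampus, led by the T-type channel Cacna1g (1.89), the latter count near its background.

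Calcium-regulated enzymes and binding proteins were divided too, with 21 of 46 genes higher in the hippocampus and 18 in the striatum, against 25.8% and 25.1% of all genes. Camk2a, the kinase of long-term potentiation, stood at 103548, 115284, 120651, 104818 and 108374 in the hippocampus and 46571, 53523, 49047, 49254 and 53277 in the striatum (1.13 ± 0.068 (SE), adjusted p = 1.13e-08), whereas its nuclear relative Camk4 was higher in the striatum (-2.23 ± 0.14 (SE)). The calcium sensors Ncald (2.35) and Vsnl1 (2.12) were higher in the hippocampus. The buffer Calb1 (-1.23), of SPNs, dentate and CA1 cells, was higher in the striatum. Of the stores, the IP3 receptor Itpr1 (-1.71) was higher in the striatum and the ryanodine receptor Ryr2 (1.46) in the hippocampus.

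Guidance, adhesion and growth factor genes differed in both directions. Of 67 guidance and adhesion genes, 31 were higher in the hippocampus and 24 in the striatum (background 25.8% and 25.1% of all genes). Slit1 (3.75), a repulsive ligand, the semaphorin receptors Nrp2 (3.0) and Plxna1 (2.8) and Ephb2 (2.39) were higher in the hippocampus, and Sema3a (-3.04), Epha8 (-2.9) and Plxnd1 (-2.66) in the striatum. Of 26 Wnt genes, 13 were higher in the hippocampus, among them the agonists Rspo2 (3.22) and Rspo3 (2.07), and 5 in the striatum, led by the receptor Fzd5 (-2.42), which is below the background. Of 44 growth factor genes, 19 were higher in the hippocampus and 12 in the striatum, only the latter near its background. Bdnf, the brain-derived neurotrophic factor, which striatal neurons receive from other regions, stood at 986.3, 1081, 1095, 969.6 and 983.7 in the hippocampus and 34.7, 33.1, 36.5, 53.3 and 170.3 in the striatum (4.27 ± 0.35 (SE), adjusted p = 2.8e-07), or a log2 difference of 4.69 without striatum replicate 5. Ntf3 (6.42), Fgf5 (4.19) and Fgf10 (3.81) lay on the same side, and Gdnf (-5.0), a survival factor of dopamine neurons, was higher in the striatum, at 223.5, 193.8, 182.7, 215.5 and 154.8 against 7.93, 4.99, 2.18, 5.37 and 6.38. Of 10 genes of steroid receptors and their targets, the mineralocorticoid receptor Nr3c2 (1.82 ± 0.09 (SE)) and Hsd11b1 (2.47), which regenerates corticosterone, were higher in the hippocampus, and the glucocorticoid receptor Nr3c1 was higher in the striatum with a log2 difference of -0.38.

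Immediate early genes, which neuronal activity induces, were called in both directions, 11 of 20 higher in the striatum and 4 in the hippocampus, where the background was 25.1% of all genes called toward the striatum and 25.8% toward the hippocampus. Egr1 stood at 14584, 10366, 10324, 13937 and 13841 in the striatum and 3145, 2590, 3008, 2362 and 2987 in the hippocampus (-2.15 ± 0.11 (SE), adjusted p = 3.24e-09). Arc, a synaptic effector, stood at 8454, 3856, 1572, 6047 and 8004 in the striatum and 5075, 2946, 2143, 3362 and 4410 in the hippocampus. Fos, a transcription factor, stood at 871.0, 249.9, 92.1, 354.9 and 729.4 in the striatum and 414.3, 144.8, 156.8, 193.4 and 349.7 in the hippocampus. Both varied several-fold within the striatum and did not pass the test (limma adjusted p = 0.332 and 0.352), although both passed it without striatum replicate 3, their lowest striatum sample (log2 differences -0.88 and -1.08), and Arc with the replicate number as a block (-0.48, adjusted p = 0.0368). Jun (1.94), Nr4a2 (2.07) and Nr4a3 (1.72) were higher in the hippocampus. Nr4a2, also a marker of the claustrum, overlapped between regions, as striatum replicate 5 held 1280 normalized counts against 144.1 to 331.7 in the other samples, and its difference was 2.57 without that sample.

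Glial genes differed by small amounts, with exceptions. Of 28 oligodendrocyte genes, 16 were higher in the striatum and 1 in the hippocampus (median log2 difference -0.32), against 25.1% and 25.8% of all genes. The myelin genes Mobp (-0.61 ± 0.08 (SE)) and Mbp (-0.46 ± 0.076 (SE)) were among them. The exception was Enpp2 (1.71), which the choroid plexus list also holds. Of 19 microglial genes, 12 were higher in the striatum (median -0.31), led by Csf1r (-0.55), and 0 in the hippocampus. With equal totals per sample, 11 oligodendrocyte and 7 microglial genes were higher in the striatum. Of 25 astrocyte genes, 15 were higher in the hippocampus and 2 in the striatum (median 0.26). Gfap, the filament of reactive and fibrous astrocytes, stood at 10021, 9543, 8699, 9353 and 8813 in the hippocampus and 859.3, 1078, 1293, 1016 and 1423 in the striatum (3.05 ± 0.11 (SE), adjusted p = 1.08e-10), and angiotensinogen, Agt, differed by 2.98 ± 0.13 (SE). Unc13c (-3.71) and Id4 (-1.77) were the 2 genes of this list higher in the striatum.

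Marker lists of bordering tissue, vessels and ventricle lining were read against the 50.9% of all genes called, 25.8% toward the hippocampus and 25.1% toward the striatum. All 10 meningeal genes were higher in the hippocampus, with sums of 11584 to 39757 against 4026 to 7778 in the striatum, as were 15 of 16 choroid plexus genes (median log2 difference 4.37). Of 18 genes of cortex and claustrum, 6 were higher in the hippocampus and 10 in the striatum. Of 12 genes of the globus pallidus, septum and olfactory tubercle, 5 were higher in the striatum, including Nkx2-1 (-4.02) and Trh, and 2 in the hippocampus, and of 12 ependymal genes 4 were higher in the hippocampus. Of 10 genes of the thalamus and habenula, 3 were higher in the hippocampus and 2 in the striatum, and of 18 genes of endothelial and mural cells, 3 and 6. The shares called in the ependymal list (33.3%), the thalamic list (50%) and the vascular list (50%) were thus at or below that of all genes. The part of this tissue in the differences of other genes was not tested.

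Mitochondrial transcripts were higher in the striatum, where 10 of 13 genes encoded in mitochondrial DNA passed the test and 0 passed it toward the hippocampus (median log2 difference -0.65, background 25.1% of all genes called toward the striatum). Their sums were 2535595 to 3186815 normalized counts in the striatum and 1521500 to 2121219 in the hippocampus. Equal totals per sample left the count at 10, and quantile normalization lowered it to 4. Of 16 housekeeping genes, 7 were higher in the hippocampus and 3 in the striatum, against 25.8% and 25.1% of all genes. The share called (62.5%) was not far from the 50.9% of all genes. Gapdh did not pass the test (0.12, adjusted p = 0.166) except with quantile normalization (0.25, 0.022) and with equal totals per sample (0.24, 0.0161).

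Levels in WT cortex were set beside those of the regions compared. Among the 1490 genes at least 2-fold higher in the hippocampus, the cortical mean on the log2 scale lay nearer the hippocampal than the striatal mean in 62.8%. These include 425 genes whose cortical mean lay above the hippocampal mean. Among the 1217 genes at least 2-fold higher in the striatum, the cortical mean lay nearer the striatal mean in 29.7%, including 97 genes in which it lay above. Slc17a7 held 39096 ± 1310 (SD, n = 5) in the cortex and Camk2a 116937 ± 5230 (SD, n = 5) against hippocampal means of 33866 and 110535. C1ql2 (9.86 ± 4.95 (SD, n = 5)), Dsp (1.19 ± 0.974 (SD, n = 5)), Lhx9 (5.17 ± 4.11 (SD, n = 5)) and Lct (32 ± 23.7 (SD, n = 5)) held low levels in the cortex. Shank1 held 25393 ± 2960 (SD, n = 5) in the cortex, above both regions, and Shank3 8005 ± 725 (SD, n = 5), near the hippocampus. Of the striatal genes, Adora2a (66.1 ± 16.2 (SD, n = 5)), Drd2 (27.6 ± 2.14 (SD, n = 5)) and Rarb (187.9 ± 21 (SD, n = 5)) were low in the cortex, whereas Scn4b (3249 ± 388 (SD, n = 5)) held an intermediate level. No test was made between the cortex and either region.

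**Figure D4:**
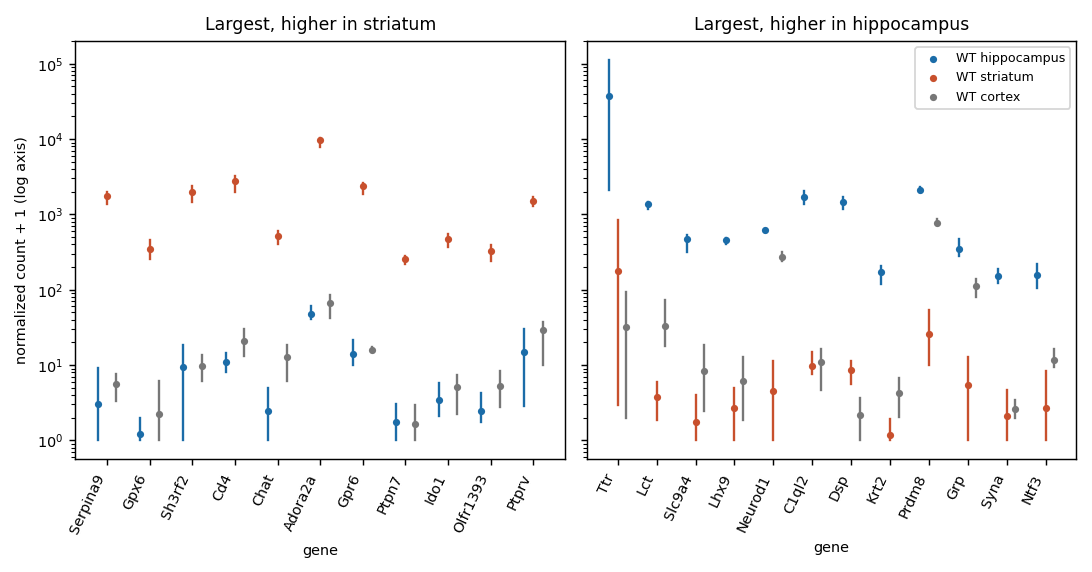
Mean normalized count plus 1 (points, log axis) and the range of the 5 WT samples (lines) in hippocampus, striatum and cortex for genes of largest difference, 11 toward the striatum and 12 toward the hippocampus. The striatal genes shown are low in both other regions, and Neurod1, Prdm8 and Grp of the hippocampal genes lie well above their striatal levels in the cortex.

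The same comparison in mice with Shank3 mutations, which used other samples, gave similar numbers of genes. For Shank3-HT mice, 8945 of 16639 genes passed the test (53.8%), and for Shank3-HM mice 9054 of 16671 (54.3%). Of the 1490 genes at least 2-fold higher in WT hippocampus, 1221 (81.9%, or 86.2% of the 1417 in Shank3-HT mice) were again called at 2-fold in Shank3-HT mice and 1290 (86.6%, or 85.1% of 1516) in Shank3-HM mice. For the 1217 striatal genes, these were 982 (80.7%, or 86.4% of 1136) and 994 (81.7%, or 86.3% of 1152). With Shank3-HT and then Shank3-HM mice, opposite signs were found in 5 and 1 of the hippocampal genes and in 6 and 4 of the striatal genes. Adora2a differed by -7.66, -7.46 and -7.39 on the log2 scale in the order WT, Shank3-HT, Shank3-HM, Drd1 by -6.6, -6.53 and -6.51, C1ql2 by 7.49, 6.4 and 6.75, and Slc17a7 by 4.0, 5.09 and 4.04. For Ttr, the difference was 9.89 in WT mice but 3.46 in Shank3-HT mice, and 8.97 in Shank3-HM mice. Shank3 itself kept its direction (-0.63, -0.57 and -0.59), although what the transcripts of the mutant allele contribute to its level was not analysed here.

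**Figure D5:**
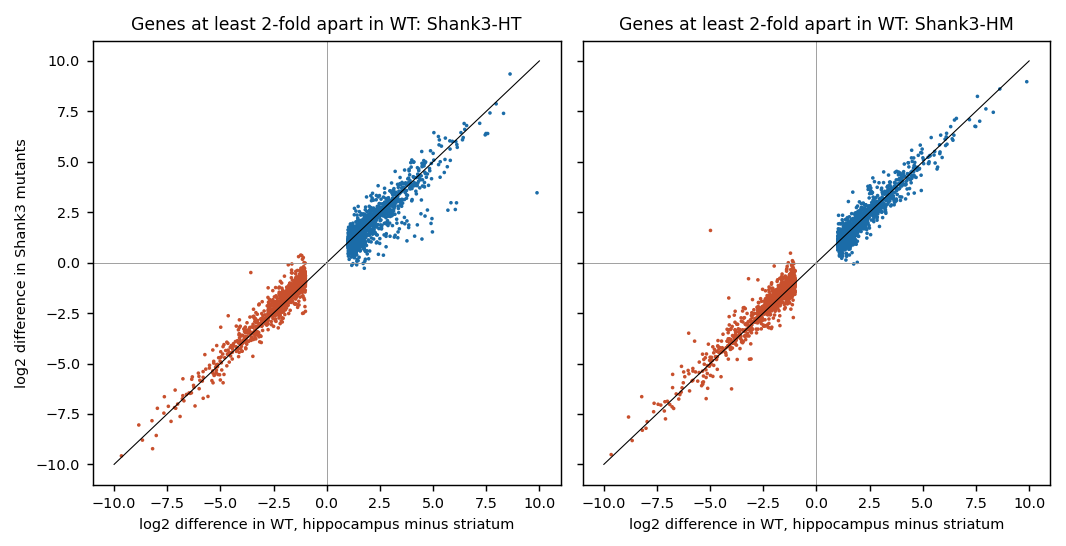
Log2 difference between hippocampus and striatum in Shank3-HT (left) and Shank3-HM mice (right, vertical) against that in WT mice (horizontal) for the genes called at least 2-fold apart in WT mice (1490 blue toward the hippocampus, 1217 red toward the striatum), with the line of equality. Most points follow the line, and the points far below it in Shank3-HT mice include Ttr.

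A test of the change in the region difference itself, by the interaction of region and genotype in limma, called 0 of the genes tested in Shank3-HT mice, where 847 (5.09%) had an unadjusted p value under 0.05, and 6 (0.036%) with Shank3-HM mice, where 863 (5.18%) did. The 6 genes were Mas1, Rimbp2, Tpm1, Lamp5, Necab1 and Tyw3. Mas1, the receptor of angiotensin 1-7, differed between regions by 2.85 in WT and 2.1 in Shank3-HM mice, a change of -0.74 (adjusted p = 0.0025). The number called ranged from 0 to 18 when samples were left out, and was 18 without WT striatum replicate 5. It was 2 with the replicate number as a block and 1 without the intensity trend.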

How the data were processed

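Polyadenylated RNA of hippocampus, striatum and cortex was sequenced with a stranded kit in 5 samples per region and genotype. The authors quantified reads with Salmon (1.1.0) against GRCm38, corrected for GC bias, summarized transcripts to genes with tximport and normalized them with DESeq2 (1.26.0 in the submitters' processing notes). The deposited values are these normalized counts, a signal on a relative scale, for 18135 genes and 45 samples. Whole reads could not be recovered (at most 41.4% of low values in a sample were whole multiples within 0.05, against 10% by chance), so the depth is unknown and no count test was run. Normalized totals were 26118607 to 27380382 in WT hippocampus and 28221128 to 29568983 in WT striatum. They do not show depth. Values are not per length, so levels of different genes were not compared.

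Genes that averaged 10 or more in the 10 WT samples were tested on log2(value + 1) in limma (3.58.1, R 4.3.3) with an intensity trend and Benjamini-Hochberg adjustment over all genes tested, and called at an adjusted p value under 0.05. Shank3-HT and Shank3-HM mice were fitted in the same way, and the change in the region difference as an interaction. The WT comparison was also run on simulated independent normal values in which 200 of 16654 genes were changed. Of changes of 0.5 and 1 on the log2 scale, 52% and 75% passed the test, with 1 false call among 128. Far fewer genes were changed there than were called in the data, so these shares do not carry over directly. The interaction was not simulated. Columns headed KI were taken as Shank3-HM, since cortex columns headed HM in a table of the study have the same profiles, which was checked in the cortex only. Gene symbols came from GENCODE M21 (18120 of 18135 identifiers) and promoter sequences from RefSeq (GRCm38.p6).

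The text names the 12 genes of largest difference and the 3 of smallest p value per direction (mean of at least 100 in the higher region and no overlap, leaving out gene models named Gm or Rik and pseudogenes), up to 4 members per direction of each of 41 lists, and genes fixed with the lists. Some list members shown for contrast, and the genes with values below 10 in one region, were chosen after their values were seen. The comparison and the lists were chosen with earlier results of these data known. Of 895 list entries, 883 were found and 878 tested. Genes with near-identical copies may share reads. Some genes that these rules name are not reported here.

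Alternatives were another normalization, filter, pseudocount or trend, a fit of all 45 samples, the replicate number as a block, and leaving out samples.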

Additional observations from a re-analysis of the deposited data

Results flagged for a closer look

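Samples far from the others of their group, by Dixon's criterion at 95% for 5 samples, were found in 80 of 452 groups of values over 226 named genes (17.7%), where chance gives about 1 in 20. Values below are normalized counts in the far sample. WT hippocampus replicate 1 was the highest of its group for Gabrd (808.1), Kcnj4 (1737), Lamp5 (1017), Gapdh (64951), Gnas (32393), Rara (464.0) and Adra1d (941.8). WT hippocampus replicate 1 was the lowest of its group for Pde10a (1700), Gnal (3068), Oprd1 (166.0), Zbtb20 (6273) and Shank1 (12087). WT hippocampus replicate 3 was the highest of its group for Gpx6 (1.01). WT hippocampus replicate 3 was the lowest of its group for Adcy8 (287.4). WT hippocampus replicate 4 was the highest of its group for Six3 (73.6), Adcy6 (2346), Otx2 (519.8) and Ttr (113040). WT hippocampus replicate 4 was the lowest of its group for Gabbr1 (15719). WT hippocampus replicate 5 was the highest of its group for Serpina9 (8.1) and Htr1d (10.4). WT striatum replicate 2 was the highest of its group for Slc9a4 (3). WT striatum replicate 3 was the lowest of its group for Gapdh (48615). WT striatum replicate 4 was the highest of its group for Reln (6139), Dlgap2 (3080) and Ttr (839.6). WT striatum replicate 4 was the lowest of its group for Nr3c1 (2586) and Aldh1a3 (2.1). WT striatum replicate 5 was the highest of its group for Oprm1 (177.1), Sox11 (748.5), Npy (1264), Kcnj9 (1538), Adcy2 (2009), Gnas (14047), Gabbr2 (3607) and Cacna1g (1236). It was also the highest for Adcy8 (142.6), Adcy1 (10416), Nr4a2 (1280), Homer2 (974.4), Pde1a (2091), Vsnl1 (4743), Ncald (6073) and Cnih3 (684.8). It was also the highest for Kcnj3 (913.0), Plxna1 (1577), Kcnc4 (483.3), Crhbp (161.6), Kcnc2 (621.8), Rspo2 (152.4), Cyp26b1 (64.2) and Cck (1182). It was also the highest for Htr1a (158.4), Slit1 (854.7), Slc17a6 (68.6), Fgf10 (96.2), Sstr3 (172.0), Ccn3 (404.8), Slc17a7 (7801) and Kcnj6 (169.7). It was also the highest for Fgf5 (19.6), Bdnf (170.3), Neurod6 (606.2), Neurod2 (420.1), Ntf3 (7.47), Krt2 (0.923) and C1ql2 (13.7). WT striatum replicate 5 was the lowest of its group for Adora2a (7746), Gpr6 (1867), Drd1 (7318), Rgs9 (15467), Syt6 (4739), Pde10a (43557), Rasd2 (18533) and Adcy5 (34793). It was also the lowest for Gabrd (2957), Slc32a1 (4757), Kcnj4 (3879), Necab2 (4624) and Tpm1 (8139).

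The difference between hippocampus and striatum itself differed between Shank3-HM and WT mice in 6 genes, by the interaction term in limma, but the number called was 2 with the replicate number as a block, 1 without the intensity trend and 0 to 18 with samples left out. Lamp5, a membrane protein of some interneurons, had a region difference of -1.76 in WT and -2.38 in Shank3-HM mice, a change of -0.62 on the log2 scale (adjusted p = 0.0456). Rimbp2, a presynaptic scaffold, had a region difference of 0.41 in WT and -0.06 in Shank3-HM mice, a change of -0.48 on the log2 scale (adjusted p = 0.033). Tpm1, a tropomyosin, had a region difference of -1.06 in WT and -1.46 in Shank3-HM mice, a change of -0.4 on the log2 scale (adjusted p = 0.033). Necab1, a calcium binding protein, had a region difference of -1.49 in WT and -0.72 in Shank3-HM mice, a change of 0.78 on the log2 scale (adjusted p = 0.034). Tyw3, an enzyme of transfer RNA modification, had a region difference of -0.88 in WT and 0.39 in Shank3-HM mice, a change of 1.26 on the log2 scale (adjusted p = 0.033). Mas1, the receptor of angiotensin 1-7, had a region difference of 2.85 in WT and 2.10 in Shank3-HM mice, a change of -0.74 on the log2 scale (adjusted p = 0.0025).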

How the results depend on the processing

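In WT mice, the number of genes called and its split by direction stayed within 1.5 times under each alternative, with 7268 to 8654 genes when samples were left out (3704 to 4353 toward the hippocampus and 3564 to 4301 toward the striatum). At least 2-fold calls ranged from 1419 to 1566 and from 1157 to 1257 in these fits, and a minimum mean of 100 lowered them to 854 and 751, because fewer genes were tested. Equal totals per sample gave 5724 and 3110 genes, and equal medians 3891 and 4639. Leaving out samples gave 7752 to 8835 genes in Shank3-HT mice (3910 to 4472 and 3842 to 4363) and 8045 to 8943 in Shank3-HM mice (4097 to 4591 and 3942 to 4355).

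The interaction was less stable. In Shank3-HT mice, 1 gene was called with no filter on low values and 0 to 0 with samples left out. In Shank3-HM mice, the 6 genes became 1 without the intensity trend, 12 with a pseudocount of 10, 12 with all 45 samples in one fit, and 0 to 18 with samples left out, with 18 without WT striatum replicate 5. The cause was not tested.

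Same-numbered samples of WT hippocampus and striatum correlated at 0.0228 to 0.213 in their deviations from the group means, above 0.1 in 4 of 5 pairs, and 8 of 10 samples correlated best with their own number. Same-numbered samples correlated at 0.0521 to 0.198 in Shank3-HT mice and at 0.0506 to 0.144 in Shank3-HM mice. In each of these genotypes, too, 8 of 10 samples correlated best with their own number. This is a hint of pairing from the data, seen in every genotype, and not from the labels. The paper counts mice over the regions named together, but does not state that each mouse gave all regions. Because 1 WT pair lay below 0.1 and the labels name no shared mouse, the fits reported carry no block. Their p values therefore take no account of any pairing. The replicate block gave 8926 genes for WT, 9042 for Shank3-HT and 9261 for Shank3-HM mice, and 2 genes for the interaction with Shank3-HM. Among the 226 genes checked singly, it brought Arc and Zbtb20 past the test (limma adjusted p = 0.0368 and 0.00833) and changed no other call.

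Among single genes, those that changed sign were not called where the sign had changed. Gria3 stood at 0.04 with quantile normalization and 0.08 with equal totals, and ran from -0.06 to 0.01 with samples left out. Gria2 stood at -0.00 with equal medians and ran from -0.02 to 0.14 with samples left out. Grin2b ran from -0.02 to 0.21 with samples left out, and was called without hippocampus replicate 1 (0.21, adjusted p = 0.0413) but not without replicate 1 of both regions (0.21, 0.0684). With equal totals, Grin1 was no longer called (-0.09), and Gapdh (0.24), Rgs14 (0.25), Sst (0.28) and Zbtb20 (0.64) were. Aldh1a3 was not called without replicate 3 of both regions (1.20, limma adjusted p = 0.06).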

Other observations

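Of the enzymes that can begin the breakdown of tryptophan to kynurenine, Tdo2 was higher in the hippocampus and Ido1 in the striatum, and Ido2 did not pass the test (0.17 ± 0.21 (SE), adjusted p = 0.539). They were chosen after their values were seen. Tdo2, which the list of dentate granule cell genes holds, stood at 157.5, 125.8, 141.7, 81.3 and 223.4 normalized counts in WT hippocampus and 0.568, 1.32, 2.32, 5.67 and 2.16 in WT striatum, a log2 difference of 5.53 ± 0.38 (SE) (limma, adjusted p = 3.81e-08). Ido1 stood at 4.85, 2.51, 2.22, 1.79 and 1.08 and 549.1, 531.6, 491.4, 424.2 and 367.1, a difference of -7.15 ± 0.25 (SE) (adjusted p = 7.06e-11). The groups overlapped for neither of these. In the cortex, Tdo2 held 19.6 ± 12.5 (SD, n = 5) and Ido1 4.09 ± 1.89 (SD, n = 5). The directions were the same in Shank3-HT mice (4.47 and -7.19) and with both alleles mutated (5.33 and -7.35).

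Gstp2, a glutathione transferase gene chosen after its values were seen, stood at 3.38, 2.83, 1.9, 1.91 and 2.75 in WT hippocampus and 59.8, 234.4, 87.1, 108.5 and 121.1 in WT striatum (-4.99 ± 0.33 (SE), adjusted p = 2.7e-08). For Shank3-HT mice the region difference was -3.2 and for Shank3-HM mice 1.6, and its change in Shank3-HM mice did not pass the test (adjusted p = 0.0995). The gene has a near-identical neighbour, Gstp1, with which it may share reads, so its level is uncertain.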
